A study of Mus musculus with 9 samples.

Results

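The genes described here encode subunits of potassium channels, and their messenger RNA was measured in mouse heart in 9 libraries. The members were all protein-coding genes whose mouse symbol starts with Kcn and that the rule for the set covers, 93 of the 55401 genes in the deposited count table. The choice was made by symbol and not by level, although the set was picked with earlier results of these data known. The source of every sample is heart of the C57BL/6 strain, although the extraction protocol also speaks of an adipose type. The 3 libraries labelled Ctrl came from mice given PBS. The 3 labelled AngII had angiotensin II as their treatment, a hormone that constricts vessels and can make the heart enlarge. The 3 labelled Kmo_AngII have angiotensin II as their treatment too, and the labels do not say what Kmo stands for. No genotype other than the strain, dose, duration, sex or age is stated, and the labels do not tell whether replicates were different animals. The p-values therefore measure the spread between these libraries, which may be technical. The series title is about heart enlargement and the deubiquitinase JOSD2, and neither word occurs in a sample label.

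The titles of the samples carry a second set of letters that crosses the treatment labels. WC marks Ctrl replicate 1 and AngII replicates 1 and 2. WA marks Ctrl replicates 2 and 3 and AngII replicate 3. KKA marks the 3 Kmo_AngII libraries. The meaning of these letters is not given, so tests were run under both groupings, and no library was moved from one group to another.

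Potassium channels let potassium ions leave the cell and so end the action potential of a heart muscle cell and set its resting voltage. Voltage-gated (Kv) alpha subunits form the pore of the transient outward and delayed rectifier currents, with silent Kv subunits, KChIP, Kv-beta and KCNE proteins as partners. Inward rectifier (Kir) subunits hold the resting potential, and those that join a sulfonylurea receptor sense ATP. Two-pore-domain (K2P) channels carry background current. In the mouse ventricle repolarisation rests largely on Kv channels, among them Kv4 and Kv1.5, while the channels made by Kcnh2 and Kcnq1 are best known from long QT syndrome in people.

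Among the members, 17 were Kv alpha subunits, 10 silent Kv subunits, 12 Kv auxiliary subunits and 13 KCNQ or KCNH (ether-a-go-go) subunits. A further 14 were Kir subunits, 14 K2P channels, 8 calcium- or sodium-activated channels and 4 auxiliary subunits of calcium-activated channels, and the remaining 1 was Kcnrg, a regulator that is not a channel. In the fit of all 9 libraries 62 members passed the filter on low counts, and in the fit of the 6 WC and WA libraries 57 did. A mean of at least 1 CPM (counts scaled to library size by the TMM method) was reached by 36 members and a mean of at least 10 by 14. No count was found in any library for 7 members: Kcna10, Kcng3, Kcnh5, Kcnj13, Kcnk16, Kcnk18 and Kcnmb3. The 12 members with the highest mean held 83.1% of the summed CPM of the set.

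Total counts per library ranged from 56827533 to 73194268. The library labelled Kmo_AngII replicate 3 stood apart, with atrial muscle genes at 469 CPM for Myl7, 289 CPM for Sln and 385 CPM for Myl4. Ctrl replicate 2 held the same genes at 47.7, 35.0 and 65.2 CPM, while Myl7 reached at most 0.854 CPM in the other libraries. Kmo_AngII replicate 3 also had the lowest summed level of 6 ventricular muscle markers (12104 CPM against 17242 to 30293 CPM elsewhere). Its sums for fibroblast (1674 CPM), epicardial (86.1 CPM) and adipocyte (30.1 CPM) markers were the highest. The summed CPM of all members was lowest in that library too, at 423 CPM against 521 to 665 CPM in the other 8. In bulk RNA, fewer cells of a type and less RNA per cell cannot be told apart. Mitochondrially encoded genes took 48.1% ± 4.62 of counts (SD, n = 3) in Ctrl, 33.9% ± 4.87 in AngII and 42.5% ± 12.5 in Kmo_AngII libraries. For AngII against Ctrl the two-sided exact permutation p was 0.1, the smallest that 3 against 3 allows.

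Promoter sequences of RefSeq, with their build GRCm38.p6, were searched for 10 of the 12 members that differed between the WA and WC libraries. They held 4 of these: Kcnd3, Kcnh2, Kcna2 and Kcnt2. The 250 bases before the start of Kcnd3 (chr3:105451640-105451889, plus strand) and Kcnh2 (chr5:24329592-24329841, minus strand) are shown because these are the best measured of the 4 and both were lower in WA. Capitals mark matches to the GC box, the letters GGGCGG, searched on both strands.
Kcnd3: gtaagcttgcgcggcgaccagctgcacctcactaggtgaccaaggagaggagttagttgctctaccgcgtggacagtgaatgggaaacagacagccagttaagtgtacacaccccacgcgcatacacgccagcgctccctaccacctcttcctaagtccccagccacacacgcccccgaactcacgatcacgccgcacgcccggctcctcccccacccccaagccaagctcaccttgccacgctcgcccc
Kcnh2: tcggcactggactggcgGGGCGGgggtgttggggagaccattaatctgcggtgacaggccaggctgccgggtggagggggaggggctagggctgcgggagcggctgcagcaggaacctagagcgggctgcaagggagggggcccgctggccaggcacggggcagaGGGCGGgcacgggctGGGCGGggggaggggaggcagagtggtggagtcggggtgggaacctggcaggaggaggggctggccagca
The Kcnh2 window held 3 GC boxes, starting at -233, -85 and -70 from the transcription start, and the Kcnd3 window held none. Of 32851 promoter windows of this length, 32.74% held a GC box. The other letters searched, also on both strands, were TATAAA, the box bound by TBP, in 12.37% of windows; TGGAAA, the core of an NFAT site, in 18.58%; TATTTA, part of a MEF2 site, in 12.71%; and AGATAA, a site of the GATA factors, in 9.988%. None of these occurred in the windows of Kcnd3, Kcnh2, Kcna2 or Kcnt2. These are letter matches only. The submitters' processing notes name another build, mm8, so no coordinate was joined to a count.

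Per kilobase of exon, the highest mean level over the 9 libraries was that of Kcnip2, at 32.3 CPM per kb. Kcnk3 followed at 19.8, Kcnj11 at 12.8, Kcng2 at 12.4, Kcnh2 at 10.8, Kcnj8 at 9.69 and Kcna5 at 7.60 CPM per kb. The pore subunits Kcnj2 (4.11) and Kcnd3 (1.99) came lower on this scale, as did the silent subunit Kcnv2 (3.61 CPM per kb). Kcne1, the small partner of Kcnq1, reached 0.578 CPM per kb. The neighbours Kcnj11, Kcng2 and Kcnh2 had coefficients of variation of 38.3%, 38.7% and 27.4% over the 9 libraries, wider than the gaps between their means. Their order was not tested. These spreads pool the groups, and Kcnh2 was lower in WA than in WC while Kcnj11 and Kcng2 were higher. Among the 14 members with a mean of at least 10 CPM, the coefficient of variation over the 9 libraries was 21.6% for Kcnip2, 45.8% for Kcnd3 and 49.1% for Kcnv2, the widest of the 14.

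The WA and WC libraries were compared in a fit of those 6 libraries alone. This fit was taken as a result of its own with earlier results of these data known. In the fit of all 9 libraries, edgeR called no gene for the same contrast. The test here was edgeR's quasi-likelihood test, with an adjusted p under 0.05 as a call. By this test 12 of the 57 members tested differed, which is 21.1%, beside 13.3% of all 18111 genes tested. Of these, 8 were lower in WA (14.04%, beside 5.25% of all genes) and 4 were higher (7.02%, beside 8.06%). At an unadjusted p under 0.05 the share of members was 29.8% and that of all genes 29.7%, so at that threshold the members were near the background. Of those that were lower, 6 are described here, Kcnd3, Kcnv2, Kcnh2, Kcnt1, Kcna2 and Kcnt2, and the 4 that were higher are Kcne1, Kcnq1, Kcnj11 and Kcng2. Among 20 cardiac repolarising subunits, a list drawn up with earlier results of these data known, 3 were higher, 3 were lower and 14 were not called. Their median log2 difference was 0.30, beside -0.12 over all 57 members tested and -0.01 over all genes tested.

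**Figure D1:**
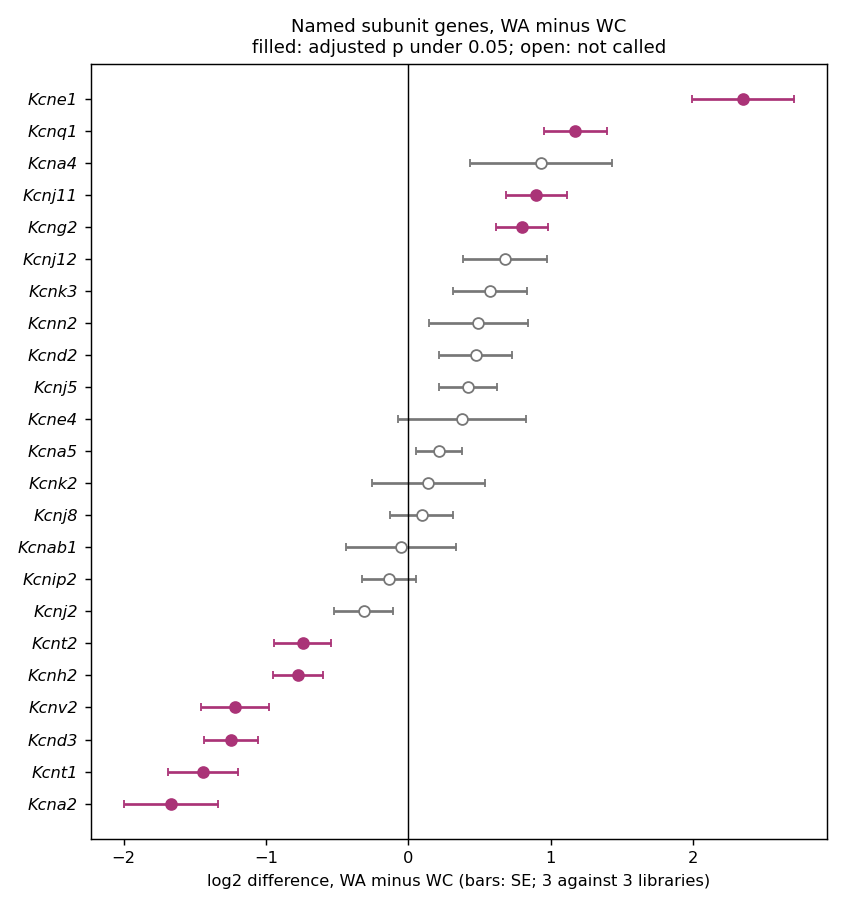
Log2 difference between the WA and WC libraries (x axis; bars are standard errors, 3 against 3 libraries) for 23 named subunit genes (y axis, ordered by the difference). Filled points passed the edgeR test at an adjusted p under 0.05 and open points did not; Kcne1 lies furthest to the right at 2.35 and Kcna2 furthest to the left at -1.67.

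Kcnd3 encodes Kv4.3, a pore subunit of the fast transient outward current (gene ENSMUSG00000040896). Its level was 21.6 CPM in Ctrl replicate 1, 23.3 in AngII replicate 1 and 30.7 in AngII replicate 2, the WC libraries. In the WA libraries it was 9.64 CPM in Ctrl replicate 2, 9.90 in Ctrl replicate 3 and 12.02 in AngII replicate 3. The groups did not overlap, and the mean was 10.5 ± 1.31 CPM in WA and 25.2 ± 4.84 CPM in WC (SD, n = 3 each). The log2 difference was -1.24 ± 0.19 (SE; edgeR adjusted p = 0.00407). The Kmo_AngII libraries held 10.9, 31.4 and 22.1 CPM, so the first lay with WA and the second beyond the highest WC value.

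No other listed member of the transient outward complex was called. Kcnd2 encodes Kv4.2, the second pore subunit of this current, and read 3.07, 3.04 and 2.35 CPM in WC and 3.41, 4.71 and 3.52 CPM in WA. Its log2 difference of 0.47 ± 0.25 was not called (edgeR adjusted p = 0.240), although the groups did not overlap. Kcnip2 (gene ENSMUSG00000025221) encodes KChIP2, the calcium-binding partner of Kv4 pores. Its levels were 108, 141 and 122 CPM in WC, 93.7, 115 and 125 CPM in WA, and 116, 132 and 58.5 CPM in the Kmo_AngII libraries. The WC and WA groups overlapped, with a log2 difference of -0.14 ± 0.19 (edgeR adjusted p = 0.681), and the lowest value of all was that of Kmo_AngII replicate 3. Kcna4, the pore subunit of the slow transient outward current, was scarce, with 0.618 ± 0.293 CPM in WC and 1.17 ± 0.489 CPM in WA. Its difference of 0.93 ± 0.50 on the log2 scale was not called (edgeR adjusted p = 0.240). Kcnab1, a Kv-beta subunit, differed by -0.05 ± 0.39 (edgeR adjusted p = 0.948).

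Kcnv2 encodes Kv8.2, a silent subunit that forms channels only together with other Kv pores (gene ENSMUSG00000047298). It read 24.1, 26.3 and 37.1 CPM in the WC libraries and 11.8, 9.17 and 16.3 CPM in the WA libraries. The groups did not overlap, and the log2 difference was -1.22 ± 0.24 (edgeR adjusted p = 0.00994). Kcng2, another silent subunit, moved the other way: 31.6, 27.9 and 25.5 CPM in WC against 46.8, 60.1 and 40.1 CPM in WA. Its log2 difference was 0.80 ± 0.18 (edgeR adjusted p = 0.0173). An exon of Kcng2 overlaps D330025C20Rik on the other strand, which had a mean of 3.55 CPM and a difference of 1.11 ± 0.38 (edgeR adjusted p = 0.0766). Whether the counting used strand is not given in the sources used here.

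Kcna5 encodes Kv1.5, the pore of the ultrarapid delayed rectifier. It read 22.6, 24.4 and 19.8 CPM in WC, 25.3, 23.4 and 28.2 CPM in WA and 15.4, 12.7 and 24.0 CPM in KKA. The difference between WA and WC was 0.22 ± 0.16 on the log2 scale and was not called (edgeR adjusted p = 0.412).

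Kcnh2 encodes ERG, the pore of the rapid delayed rectifier. Its levels were 58.5, 69.2 and 75.6 CPM in WC and 33.4, 44.8 and 39.8 CPM in WA. The groups did not overlap, with a log2 difference of -0.77 ± 0.18 (edgeR adjusted p = 0.0173). Kcnq1, the pore of the slow delayed rectifier, ran in the opposite direction, with 8.89, 6.34 and 6.44 CPM in WC and 17.7, 18.9 and 11.8 CPM in WA. Its log2 difference was 1.17 ± 0.22 (edgeR adjusted p = 0.00858). An exon of Kcnq1 overlaps the noncoding Kcnq1ot1 on the other strand, which had a mean of 8.86 CPM and a difference of -0.26 ± 0.23 that was not called. Kcne1, the auxiliary subunit that slows channels made by Kcnq1, read 0.691, 0.777 and 0.416 CPM in WC and 4.05, 2.59 and 2.95 CPM in WA. This was the widest gap among the members called, with a log2 difference of 2.35 ± 0.36 (edgeR adjusted p = 0.00407).

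**Figure D2:**
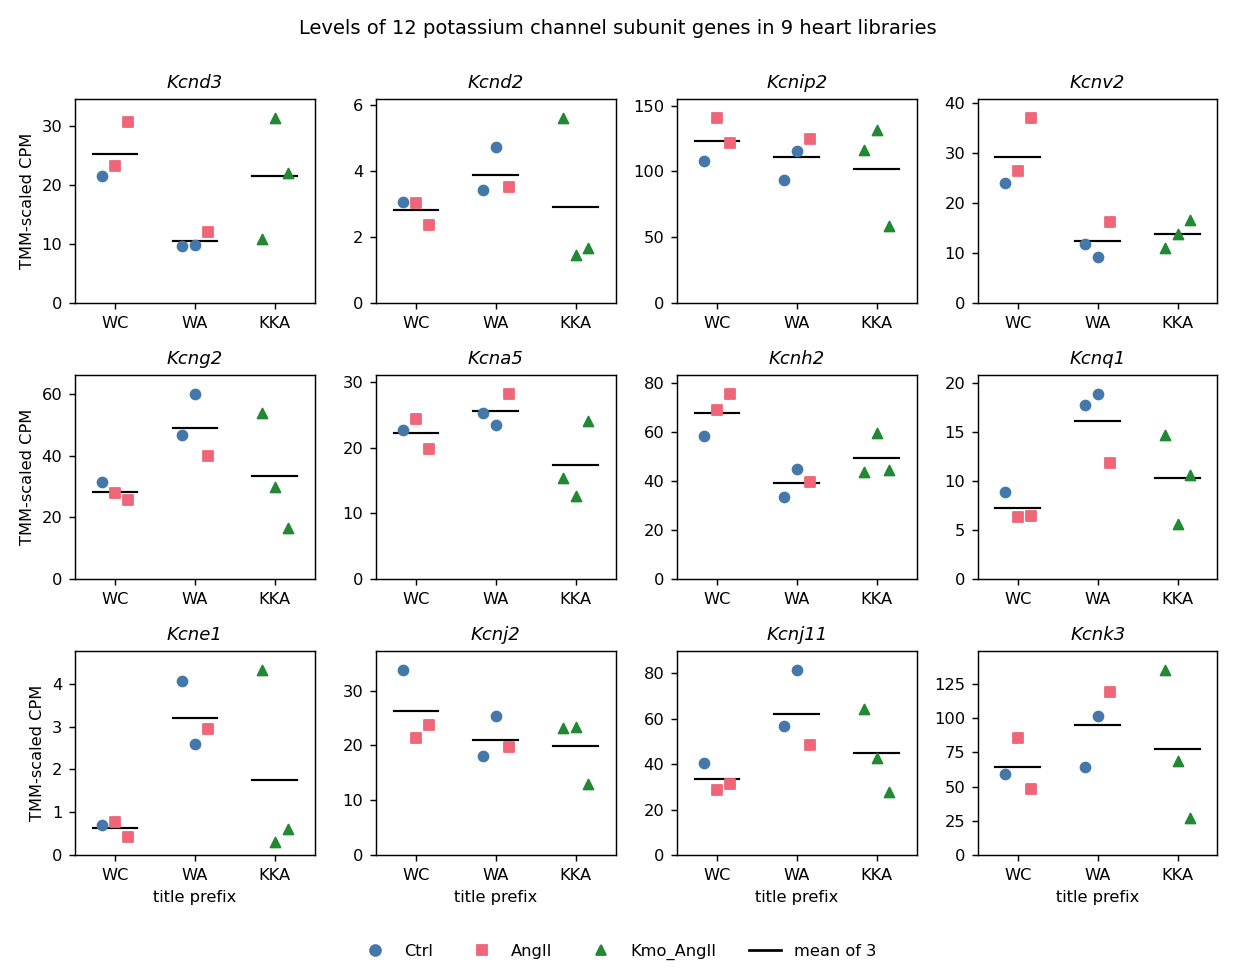
TMM-scaled CPM (y axis, from 0, with its own scale in each panel) of 12 subunit genes in each library by title prefix (x axis), with colour and shape for the treatment label and a bar at the mean of 3. Kcnd3, Kcnv2 and Kcnh2 lay lower in WA than in WC, Kcnq1, Kcne1 and Kcnj11 lay higher, Kcng2 lay higher too, and Kcnip2 and Kcna5 overlapped.

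Among the inward rectifiers, Kcnj2 encodes Kir2.1, a main carrier of the current that holds the resting potential (gene ENSMUSG00000041695). It read 33.8, 21.4 and 23.8 CPM in WC, 18.0, 25.3 and 19.7 CPM in WA and 23.2, 23.4 and 13.0 CPM in KKA. The groups overlapped, with a log2 difference between WA and WC of -0.31 ± 0.21 (edgeR adjusted p = 0.341). Kcnj12, which encodes the related Kir2.2, had 2.44 ± 0.652 CPM in WC and 3.90 ± 0.989 CPM in WA, and its difference of 0.68 ± 0.29 was not called (edgeR adjusted p = 0.147). Kcnj11 encodes Kir6.2, the pore of the ATP-sensitive channel of heart muscle. Its levels were 40.7, 28.7 and 31.5 CPM in WC and 56.7, 81.6 and 48.6 CPM in WA, with a log2 difference of 0.90 ± 0.22 (edgeR adjusted p = 0.0202). Kcnj8, the Kir6.1 pore of vascular ATP-sensitive channels, differed by 0.09 ± 0.22 and was not called. Kcnj5, a subunit of the channel opened by G proteins in atrial cells, differed by 0.42 ± 0.20 (edgeR adjusted p = 0.196).

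Kcnk3 encodes TASK-1, a background channel, and varied widely within each group. It read 58.8, 85.3 and 48.4 CPM in WC, 64.0, 101 and 119 CPM in WA and 135, 69.0 and 27.3 CPM in KKA. The log2 difference between WA and WC was 0.58 ± 0.26 and was not called (edgeR adjusted p = 0.167). An exon of Kcnk3 overlaps Gm9899 on the other strand, which had a mean of 20.3 CPM. Of the 7 K2P channels tested none was called, and Kcnk2, which encodes the stretch-sensitive TREK-1, differed by 0.14 ± 0.40.

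Of the calcium- or sodium-activated channels, 2 of the 7 tested were called lower in WA, beside 5.25% of all genes, and both encode sodium-activated pores. Kcnt1 (Slack) had 6.79 ± 1.28 CPM in WC and 2.48 ± 0.442 CPM in WA, a log2 difference of -1.44 ± 0.25 (edgeR adjusted p = 0.00564). Kcnt2 (Slick) had 8.68 ± 0.619 CPM in WC and 5.14 ± 0.737 CPM in WA, a difference of -0.74 ± 0.20 (edgeR adjusted p = 0.0329). The small-conductance channel Kcnn2 differed by 0.49 ± 0.35 and was not called. Kcna2, which encodes Kv1.2, a pore abundant in nerve fibres, read 4.94, 6.97 and 6.35 CPM in WC and 2.89, 1.15 and 1.71 CPM in WA (difference -1.67 ± 0.33, edgeR adjusted p = 0.0103).

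The calls were not all equally firm. When each of the 6 libraries was left out in turn, Kcnd3, Kcne1 and Kcnt1 were called in all 6 fits. Kcna2, Kcng2, Kcnj11, Kcnq1 and Kcnv2 were called in 4, Kcnh2 in 3 and Kcnt2 in 1 of them. Without Ctrl replicate 3, 4 of 63 members were called in place of 12 (6.35%), and the share of all genes called fell as well, to 2.77%. Without AngII replicate 2 it was 4 of 62 members (6.45%), beside 2.45% of all genes. Without Ctrl replicate 2, which held the atrial genes, 9 of 62 members were called (14.5%, beside 6.67% of all genes). With library size as the only scaling, 4 of 57 members were called (7.02%, beside 1.28% of all genes). These were Kcne1 higher (1.75%, beside 0.342%) and Kcnd3, Kcnt1 and Kcna2 lower (5.26%, beside 0.939%). That scaling moved the median of all genes from -0.01 to -0.32.

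In 17 of the 57 members every WA library lay below every WC library, which is 29.8%, beside 17.6% of all genes. In 7 members every WA library lay above every WC library (12.3%, beside 17.1% of all genes). Members of this kind that were not called included Kcnab2 and Kcnab3, which encode Kv-beta subunits, and Kcnip3, a second KChIP gene, all lower in WA.

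Summed levels of some cell type markers differed between WC and WA, and their part in this contrast was not tested. A sum is weighted to its most abundant genes. Over all genes tested, 8.06% were called higher in WA and 5.25% lower. The sum of 6 ventricular muscle markers was 17242 to 21991 CPM in WC and 25772 to 30293 CPM in WA, with 2 of the 6 called higher. Sums were lower in WA for 6 endothelial markers (938 to 986 CPM in WC, 724 to 869 CPM in WA, none called) and 6 macrophage markers (78.9 to 88.4 and 59.6 to 70.7 CPM, 1 called lower). They were also lower for 6 epicardial markers (15.9 to 18.5 and 8.40 to 11.5 CPM, 1 called lower) and 8 neuron and Schwann markers (13.0 to 14.1 and 6.65 to 10.9 CPM, none called). The median log2 difference of the epicardial markers, 0.54, had the opposite sign to their sum. Among the neuron and Schwann markers, Th was at 0 in every library. Kcna2, the Kv1.2 gene, was highest at 9.65 CPM in Kmo_AngII replicate 3, where the neuron and Schwann sum was highest too, at 32.4 CPM. That library also had the highest atrial, conduction system, smooth muscle, fibroblast, macrophage, epicardial and adipocyte sums. Any link of these sums to Kcna2 was not tested. The sums of pericyte (626 to 708 and 640 to 771 CPM), smooth muscle (140 to 199 and 147 to 205 CPM) and fibroblast markers (418 to 619 and 509 to 685 CPM) overlapped between WC and WA. Of the 6 fibroblast markers, 2 were called higher in WA, with a median log2 difference of 0.39. Sums also overlapped for conduction system (21.0 to 24.1 and 23.2 to 29.4 CPM), T cell (1.83 to 4.74 and 1.60 to 3.18 CPM) and adipocyte markers (0.818 to 1.40 and 0 to 5.15 CPM). The atrial sum was 51.3 to 119 CPM in WC and 770 to 1229 CPM in WA, mostly from Nppa, which ventricular muscle can also make, and 1 of the 4 atrial markers tested was called higher. Its other markers Sln, Myl7 and Bmp10 were at 0 in at least 1 library.

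The 3 KKA libraries did not sit together on the members that separated WA from WC. On a log2 scale on which the WC mean is 0 and the WA mean is 1, Kmo_AngII replicate 1 lay nearer to WA for 11 of the 12 called members. Kmo_AngII replicate 2 lay nearer to WA for 1 of 12 and Kmo_AngII replicate 3 for 3 of 12. For all 2409 genes called in that contrast the shares nearer to WA were 95.8%, 7.35% and 15.6%, so the members followed the rest of the genes in this. Of the 10 called members named here, Kcnv2 alone lay nearer to WA in each library, at 1.12, 0.84 and 0.63 on this scale. In CPM, Kcnv2 was 10.9, 13.9 and 16.6 in KKA, below all 3 WC libraries.

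**Figure D3:**
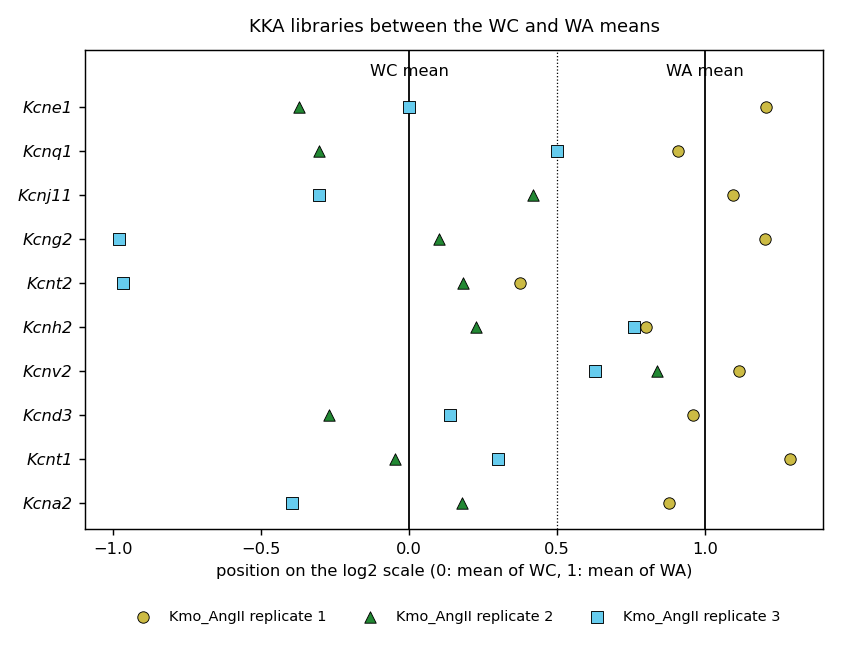
Position of each KKA library (x axis, log2 scale with 0 at the mean of WC and 1 at the mean of WA; the dotted line is midway) for 10 of the 12 members that differed between WA and WC (y axis). Kmo_AngII replicate 1 lies near 1 for most genes, replicate 2 near 0, and Kcnv2 is the row in which all 3 points lie to the right of the midline.

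When all 9 libraries were fitted together by title prefix, no member passed edgeR's test in any of the 3 contrasts, and neither did any other gene (0%). For WA minus WC in that fit 13 of 62 members had an unadjusted p under 0.05, which is 21.0%, beside 18.0% of all genes. Kcnv2 had the smallest p, with a log2 difference of -1.23 ± 0.27 (edgeR adjusted p = 0.224), followed by Kcnd3 at -1.26 ± 0.33. DESeq2 called 6 members in this contrast (9.68%, beside 2.65% of all genes), and limma-voom called none. Of these 6, 1 was higher (1.61%, beside 1.26%) and 5 were lower (8.06%, beside 1.39%). Leaving out Kmo_AngII replicate 1 gave 9 of 66 members called by edgeR (13.6%), and the share of all genes called rose from 0% to 7.98%.

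For KKA minus WA, 8 of 62 members had an unadjusted p under 0.05 (12.9%, beside 7.05% of all genes), and no tool called any. The smallest p was that of Kcnt2, with a log2 difference of 0.93 ± 0.28 (edgeR adjusted p = 0.649). Kcnd3 differed by 1.03 ± 0.33 (edgeR adjusted p = 0.673), but its groups overlapped because Kmo_AngII replicate 1 read 10.9 CPM. Without that library edgeR called 10 of 66 members (15.2%, beside 8.66% of all genes). Of these, 7 were higher in KKA (10.6%, beside 4.02% of all genes) and 3 were lower (4.55%, beside 4.63%). All 3 KKA libraries lay above all 3 WA libraries for 5 members (8.06%, beside 5.66% of all genes): Kcnma1, Kcnab3, Kcnk13, Kcnh7 and Kcnt2. They lay below for Kcnj4 alone (1.61%, beside 2.52%). Of these, Kcnma1, Kcnk13, Kcnab3 and Kcnj4 were scarce, with means of 0.132, 0.209, 0.346 and 0.329 CPM in WA. Their means in KKA were 0.303, 0.488, 0.736 and 0.118 CPM.

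For KKA minus WC, 2 of 62 members had an unadjusted p under 0.05 (3.23%, beside 3.51% of all genes), and no tool called any. These were Kcnv2, with a log2 difference of -1.08 ± 0.27, and Kcnip3, with -0.74 ± 0.32 (edgeR adjusted p = 0.995 for both). The KKA libraries lay below all WC libraries for Kcnv2, Kcnip3 and the K2P gene Kcnk1 (4.84%, beside 3.93% of all genes). They lay above them for 0 members, beside 3.66% of all genes. Kcnk1 was scarce, with a mean of 0.134 CPM in KKA and 0.468 CPM in WC. The comparisons of KKA with WA and with WC share the KKA libraries.

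Grouped by treatment label, no member passed edgeR's test in any of the 3 comparisons, nor did DESeq2 or limma-voom call any, and edgeR called 0% of all genes in each. For AngII minus Ctrl, 3 of 62 members had an unadjusted p under 0.05 (4.84%, beside 5.25% of all genes). The M-type channel gene Kcnq5 had the smallest p but was scarce, with 0.520 ± 0.255 CPM in Ctrl and 0.0828 ± 0.0703 CPM in AngII (log2 difference -2.64 ± 0.78, edgeR adjusted p = 0.890). Kcna4 followed, with 1.28 ± 0.298 CPM in Ctrl and 0.507 ± 0.126 CPM in AngII (-1.33 ± 0.47, edgeR adjusted p = 0.890). The third was Kcnmb1, a smooth muscle partner of the large-conductance channel, with 2.35 ± 0.161 CPM in Ctrl and 1.14 ± 0.389 CPM in AngII.

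Several well measured repolarising subunits varied widely within a treatment label. Kcnd3 had 13.7 ± 6.82 CPM in Ctrl, 21.99 ± 9.40 CPM in AngII and 21.4 ± 10.3 CPM in Kmo_AngII libraries. Kcnv2 had 15.002 ± 7.97, 26.6 ± 10.4 and 13.8 ± 2.86 CPM in the same order. In each of these genes the Ctrl group holds 1 WC library and 2 WA libraries and the AngII group the reverse. Kcnip2 read 105 ± 10.9 CPM in Ctrl and 129 ± 10.2 CPM in AngII. Its log2 difference of 0.29 ± 0.30 was not called (edgeR adjusted p = 0.925). Kcnj2 had 25.7 ± 7.91, 21.6 ± 2.05 and 19.8 ± 5.95 CPM. Its difference between AngII and Ctrl, -0.25 ± 0.29, turned to 0.37 with library size as the only scaling, which moved the median of all genes from 0.02 to 0.67. The title prefix was also used as a covariate for AngII minus Ctrl, in the 6 WC and WA libraries. There edgeR called 0 of 57 members, beside 0 of 18111 genes. An unadjusted p under 0.05 was found for 8 of these members, beside 1658 of all genes.

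For Kmo_AngII minus AngII, 2 of 62 members had an unadjusted p under 0.05 (3.23%, beside 2.16% of all genes). These were Kcnq5 (2.03 ± 0.77) and Kcnv2 (-0.94 ± 0.40), and neither was called by edgeR. For Kmo_AngII minus Ctrl, 1 of 62 had an unadjusted p under 0.05 (1.61%, beside 2.79% of all genes). It was Kcnh7, an ether-a-go-go type pore gene that shares exon sequence on the other strand with Gca, with a log2 difference of 0.96 ± 0.32. Kcna5 came next at -0.45 ± 0.25 (edgeR adjusted p = 0.998). The comparisons of the AngII and Kmo_AngII labels with Ctrl share the Ctrl libraries.

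**Figure D4:**
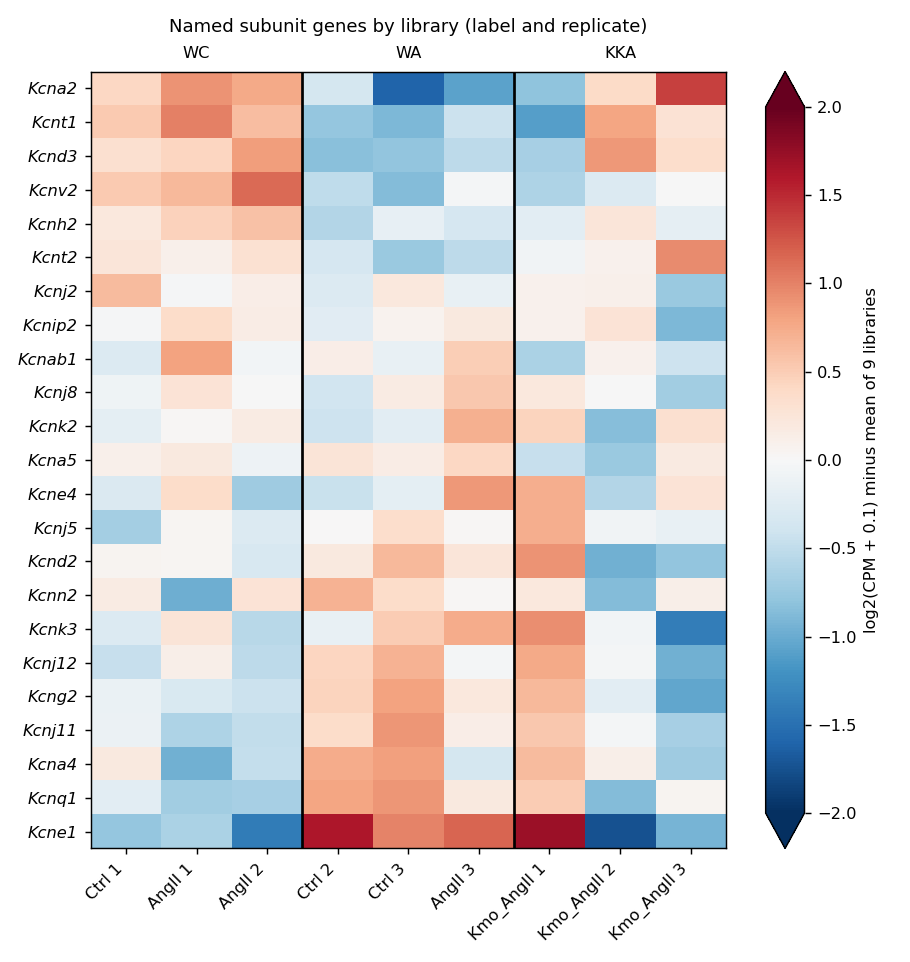
Log2(CPM + 0.1) of 23 named subunit genes (rows, ordered as their WA minus WC difference) in the 9 libraries (columns, by title prefix), each row minus its mean over the 9 libraries; red is higher and blue lower, limited to 2 on either side. The upper rows are red in WC and blue in WA, the lower rows the reverse, and the Kmo_AngII replicate 1 column looks like the WA columns.

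Ratios of subunits with related roles, whether in 1 channel or in separate currents, were taken within each library, per kilobase of exon, so that scaling between libraries drops out. For 6 ratios and 6 contrasts, 36 two-sided exact permutation tests were run. The smallest p that 3 libraries against 3 can give is 0.1, which became 0.514 after Benjamini-Hochberg adjustment, so no ratio could pass the threshold. The ratio of Kcnd3 to Kcnd2 was 3.78, 4.12 and 7.02 in WC and 1.52, 1.13 and 1.84 in WA, a log2 difference of -1.71. In KKA it was 1.04, 11.5 and 7.08. Kcnip2 stood 13.8, 16.7 and 10.9 times above Kcnd3 in WC and 26.8, 32.1 and 28.6 times in WA. In neither ratio did the WC and WA libraries overlap.

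The ratio of Kcnh2 to Kcnq1 was 5.55, 9.23 and 9.92 in WC and 1.59, 1.9999 and 2.84 in WA, a log2 difference of -1.94. Kcne1 stood at 0.0989, 0.156 and 0.0824 of Kcnq1 in WC and 0.291, 0.174 and 0.317 in WA, again without overlap. The ratio of Kcnj2 to Kcnj12, the Kir2.1 to the Kir2.2 pore, was 8.10, 3.39 and 5.94 in WC and 2.27, 2.64 and 3.48 in WA, and these overlapped. A single ratio separated the AngII label from both other labels. Kcnj11 to Kcnj8, the muscle to the vascular ATP-sensitive pore, was 0.687, 0.910 and 0.968 in AngII, below the 1.24, 2.13 and 2.11 of Ctrl and the 1.61, 1.24 and 1.29 of Kmo_AngII libraries. It was singled out after the values were seen.

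**Figure D5:**
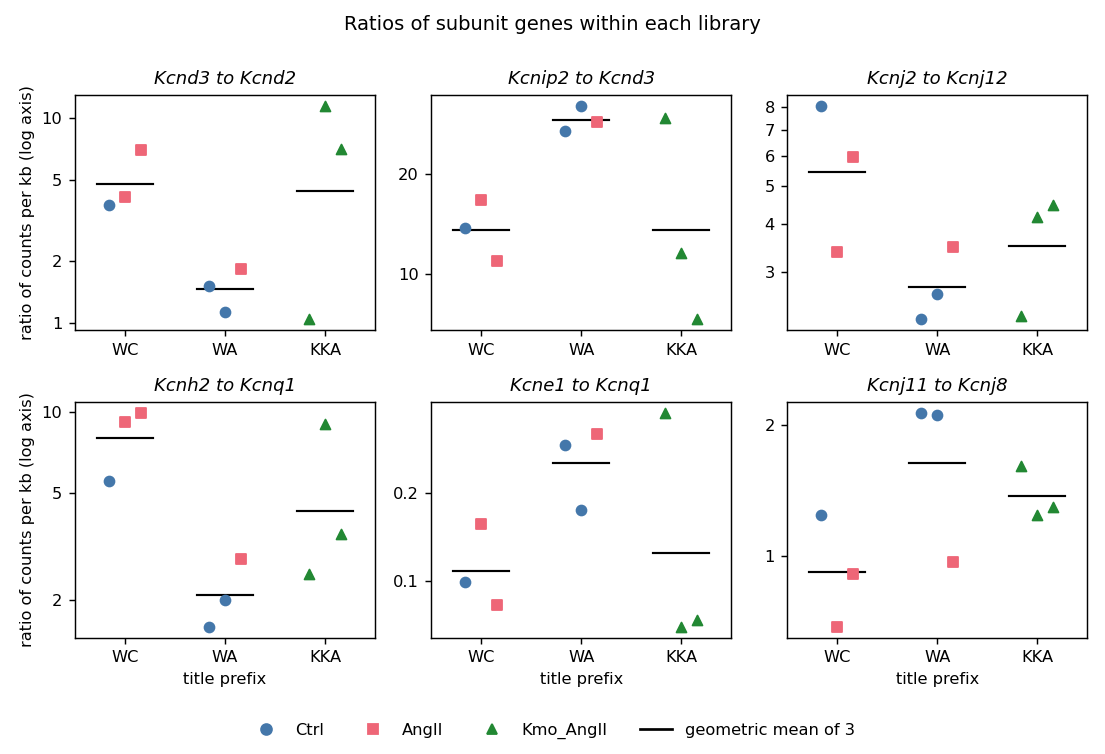
Ratio of 2 subunit genes per kb of exon within each library (y axis, logarithmic, with its own scale in each panel) by title prefix (x axis), with colour and shape for the treatment label and a bar at the geometric mean of 3. Kcnd3 to Kcnd2 and Kcnh2 to Kcnq1 lie lower in WA than in WC, and in the Kcnj11 to Kcnj8 panel the 3 AngII squares lie lowest.

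Of 16 partners and regulators of these channels outside the family, 15 were tested in the 6 WA and WC libraries and 1 was called higher, beside 8.06% of all genes. Cav3, caveolin 3 of the muscle cell membrane, had 14.3 ± 5.42 CPM in WC and 31.5 ± 4.15 CPM in WA (log2 difference 1.15 ± 0.25, edgeR adjusted p = 0.0136). The sulfonylurea receptor genes Abcc8 (-0.18 ± 0.16) and Abcc9 (0.41 ± 0.23), partners of Kcnj11 and Kcnj8, were not called. Irx3, a transcription factor of the ventricular conduction system, had a difference of 0.63 ± 0.23 (edgeR adjusted p = 0.0912), and the kinase gene Camk2d 0.56 ± 0.22 (edgeR adjusted p = 0.106). In the 6 contrasts over 9 libraries none of the partners was called.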

How the data were processed

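Poly(A) RNA of 9 heart samples was sequenced in paired-end libraries, per the labels' protocols. The authors deposited a table of whole-number counts per Ensembl gene, 1 column per library. The submitters' processing notes list StringTie 1.3.0, HISAT2 2.0 and Bowtie 0.12.2 and the mouse build mm8, without order. What each tool did, which annotation was counted and whether strand was used is not given in the sources used here. Symbols were matched for 55141 of 55401 genes. 1 further gene of the family is not reported here, and 3 members and 1 marker gene enter the counts but are not reported by name.

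Counts were tested with edgeR 4.0.16 (R 4.3.3): robust quasi-likelihood F test, TMM scaling, filterByExpr, and Benjamini-Hochberg adjustment over all genes tested. Standard errors restate the F statistic. CPM use TMM library sizes, and values per kb use the exon union of each gene. Alternatives were DESeq2 1.42.0, limma-voom 3.58.1, other scalings and filters, and leaving out each library. In simulated data the median estimate lay close to the planted log2 difference. The simulation gave all genes of a fit the same spread, so it does not show how sensitive the fits were in the real libraries. No 2 libraries agreed within counting noise (lowest chi-square per degree of freedom 60.8).

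Named genes came mainly from 20 repolarising subunits, the called members (or the 2 of smallest p) and 16 partners. Not every abundant member was named. Members, lists (including marker lists for 12 cell types) and the fit of 6 libraries were chosen with earlier results of these data known. Genes set apart for their pattern across libraries were chosen after their values were seen.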

Additional observations from a re-analysis of the deposited data

How the results depend on the processing

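No paired analysis was possible because no label says that libraries of different groups belong together as pairs. For WA minus WC in 6 libraries, 12 members were called (beside 13.3% of all genes) and 4 with library size as the only scaling (beside 1.28%). Leaving out each library gave 4 to 13 members. The 4 without Ctrl replicate 3 stood beside 2.77% of all genes. The 13 of 63 without AngII replicate 1 stood beside 2434 of 18692 genes. In 9 libraries 0 were called (beside 0% of all genes), 6 by DESeq2 (beside 2.65%) and 12 with only the 2 groups compared (beside 13.3%). Leaving out each library gave 0 to 9 (9 without Kmo_AngII replicate 1, beside 7.98%). For KKA minus WA leaving out each gave 0 to 10 (10 without the same library, beside 8.66%). In the other 4 contrasts 0 members were called under each alternative run. The most genes called there were 27 of 19091, by DESeq2 for KKA minus WC. The causes were not tested. Library size as the only scaling turned the sign of some log2 differences that were not called: Kcnj2 for AngII minus Ctrl (0.37), Kcnip2 (0.33) and Kcnv2 (0.14) for Kmo_AngII minus Ctrl, Kcnip2 (0.023) and Kcnj2 (0.093) for KKA minus WA, and Kcna5 (-0.086), Kcnj8 (-0.16) and Kcnk2 (-0.068) for WA minus WC in 6 libraries. The treatment label as a covariate turned Kcnab1 to 0.18 there.

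Leaving out each library in turn also moved small differences across 0. For AngII minus Ctrl, Kcnj2 ran from -0.45 to 0.00068. For Kmo_AngII minus AngII, Kcnd3 ran from -0.42 to 0.28 and Kcnj2 from -0.26 to 0.10. For Kmo_AngII minus Ctrl, Kcnip2 ran from -0.27 to 0.23 and Kcnv2 from -0.38 to 0.40. For KKA minus WA, Kcnip2 ran from -0.35 to 0.16, Kcnj2 from -0.22 to 0.15 and Kcnv2 from -0.023 to 0.40. For KKA minus WC, Kcnd3 ran from -0.60 to 0.085 and Kcnip2 from -0.49 to 0.0062. For WA minus WC in 6 libraries, Kcnab1 ran from -0.26 to 0.39, Kcne4 from -0.17 to 0.77, Kcnj8 from -0.14 to 0.30 and Kcnk2 from -0.32 to 0.36. Differences in the mitochondrial share ran from -12.1 to 0.41 percentage points for Kmo_AngII minus Ctrl, -3.11 to 8.03 for WA minus WC, -6.09 to 6.41 for KKA minus WA and -3.96 to 8.55 for KKA minus WC. With 3 libraries in each group, a member that was not called may still differ, and scarce members such as Kcnq5 and Kcna4 rest on few counts.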
